A study of Mus musculus with 8 samples.

Results

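Acyl-CoA synthetases join coenzyme A (CoA) to a fatty acid or to acetate, the step that commits the acid to any further use in the cell. The family members described were the 5 long-chain synthetases Acsl1, Acsl3, Acsl4, Acsl5 and Acsl6 and the acetyl-CoA synthetases Acss1 and Acss2. They were chosen by gene symbol, and each of the 7 matched 1 of the 27179 Entrez genes in the count table. RNA-seq had been performed on neonatal cardiomyocytes (NCMs) of C57Bl/6 J mice whose dams breathed either filtered air (FA) or diesel exhaust (DE) from the start of pregnancy until shortly before birth. The cells came from the ventricles of newborn males, and a step of differential adhesion had been used to deplete fibroblasts. Each library held the cells of 1 heart, and there were 4 FA libraries (replicates 2, 3, 4 and 6) and 4 DE libraries (replicates 1, 3, 5 and 7). The study's methods give a smaller n for RNA-seq than the labels do, without naming the libraries, so all 8 were used. The labels do not say which pups shared a dam or litter, so the p-values measure the spread between libraries.

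Long-chain fatty acids cannot cross the inner mitochondrial membrane or enter lipid synthesis until a synthetase has made the acyl-CoA, at the cost of ATP. The isoforms differ in where they sit and in the acids they take, so that acyl-CoA is steered to oxidation, to triglyceride or to membrane lipid. Acsl1 is the main isoform of the heart and supplies fatty acid oxidation. Around birth the heart turns from glucose and lactate towards fatty acids as fuel.

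Totals ran from 17943024 to 39839737 counts per library, and 14966 genes passed the filter on low counts. Levels are given in CPM, counts scaled to library size with TMM factors. Calls required a fitted fold change at which the level of one group was at least 25% above that of the other. A gene lower in DE could therefore be called with a fall somewhat smaller than 25% of its FA level. Calls also required that the Benjamini-Hochberg adjusted p of edgeR's quasi-likelihood test did not exceed 0.05. FA replicates 2 and 4 were more alike than any other pair of libraries within a group, with a chi-square of 5.37 per gene between their counts against 17.1 to 70.1 for the other pairs, and were kept as separate libraries. Leaving out FA replicate 2 lowered the number of called genes from 868 to 249 and leaving out FA replicate 4 lowered it to 237, while Acsl1 changed by -0.97 (adjusted p = 0.00282) and -0.99 (adjusted p = 0.00337, edgeR). Cardiomyocyte markers were abundant in all 8 libraries, with a summed level of 60430 to 63618 CPM in FA and 50929 to 59178 CPM in DE. Markers of fibroblasts were present as well, and their summed level was higher in every DE library (3655 to 6177 CPM) than in any FA library (2008 to 3461 CPM). All 8 fibroblast markers had a positive log2 fold change (median 0.66) and 2 of them, Col1a1 and Dcn, were called. Of the markers of endothelium (905 to 1192 CPM summed in FA, 961 to 1431 CPM in DE), of smooth muscle and pericytes (1113 to 1745 CPM and 790 to 1153 CPM) and of leukocytes (12.1 to 18.2 CPM and 15.1 to 25.7 CPM) none was called by edgeR's test, with 3 of 7, 1 of 6 and 1 of 5 tested genes at an unadjusted p under 0.05. Of 5 tested erythroid markers (489 to 1184 CPM summed in FA, 788 to 1344 CPM in DE), Slc4a1 was called, higher in DE. Over all tested genes 25.6% had an unadjusted p under 0.05 and 5.8% were called (edgeR). The part of these markers in the results on the synthetases was not tested. In bulk RNA, fewer cells of a type and less RNA per cell cannot be told apart.

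Among the acyl-CoA synthetases, Acsl1 alone passed the test. Its level in DE NCMs was 0.504 times that in FA NCMs, and it remained the most abundant of the 7. Acsl3, Acsl4, Acsl5, Acss1 and Acss2 were detected in every library and were not called. Acsl6, with 67 counts in all 8 libraries together, did not pass the filter and was not tested. Thus 1 of the 6 tested members was called, lower in DE. Over all tested genes 5.8% were called, 2.22% lower and 3.58% higher in DE. Of the 6, 4 had a negative log2 fold change, as had 49.5% of all tested genes. Their median log2 fold change was -0.10, against 0.004 over all tested genes.

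**Figure D1:**
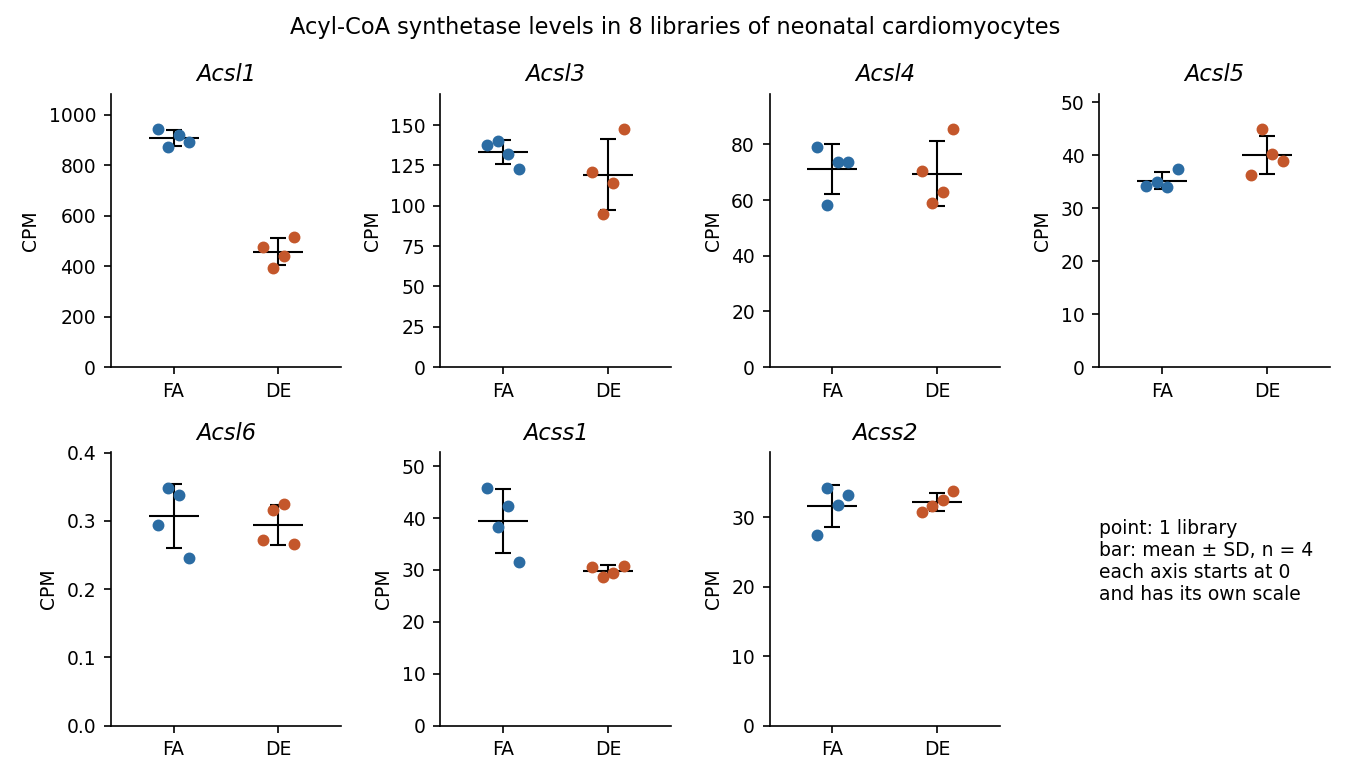
Level of each acyl-CoA synthetase in CPM (vertical axes, each starting at 0 with its own scale) in 4 FA and 4 DE libraries. Points are libraries and bars the mean ± SD (n = 4). The Acsl1 points of the groups lie far apart, with the lowest FA library at 873 CPM and the highest DE library at 517 CPM, whereas the points of Acsl3, Acsl4, Acsl5, Acsl6 and Acss2 overlap.

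Acsl1 (Entrez gene 14081), on the plus strand of chromosome 8 between positions 46471037 and 46536051 of build GRCm38.p6, encodes the synthetase found at the outer mitochondrial membrane of heart muscle. In FA NCMs it stood at 943, 873, 921 and 894 CPM in replicates 2, 3, 4 and 6. In DE NCMs it stood at 477, 393, 441 and 517 CPM in replicates 1, 3, 5 and 7. Every DE library was below every FA library, and the DE libraries were spread more widely, with a coefficient of variation of 11.6% against 3.39% in FA. The log2 fold change was -0.99 (SE 0.10, 95% interval -1.22 to -0.76, adjusted p = 0.000552, quasi-likelihood test of edgeR). In the order of p-values over all tested genes it was number 21.

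Acsl1 kept its direction and its call under all 21 other settings that were run, with log2 fold changes between -1.06 and -0.87. The sample names of DE replicates 3 and 5 carry the prefix 12 and all other names the prefix 11, and the sources do not say what the prefix stands for. The mean of Acsl1 was 497 CPM in the DE libraries of prefix 11 and 417 CPM in those of prefix 12, a log2 difference of -0.26 (SE 0.13, adjusted p = 0.250, edgeR model of 3 groups). In that comparison 2.11% of tested genes were called. With the libraries of prefix 11 alone, 4 FA and 2 DE, Acsl1 changed by -0.87 (adjusted p = 0.00653 in the edgeR test).

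Since the sum of the cardiomyocyte markers was also somewhat lower in DE, Acsl1 was set against it within each library, a scale chosen after the data were seen. Per 1000 CPM of summed cardiomyocyte markers, Acsl1 had 14.7 ± 0.589 CPM in FA libraries and 8.52 ± 1.12 CPM in DE libraries (SD, n = 4 per group), which is a ratio of 0.578. FA libraries ran from 14.0 to 15.3 on this scale and DE libraries from 7.45 to 9.76. The marker sum was lower in every DE library, which raises all genes in DE on this scale, and 1.4% of tested genes had all DE libraries below all FA libraries. Of the 8 markers, 3 were themselves called, 2 lower and 1 higher. Acsl1 is also a gene of fat and liver cells. Of the adipocyte markers, Adipoq, Plin1, Cidec, Lep and Retn were each at 0.143 CPM or less in every library and at 0 in 3 to 7 of the 8. Of the hepatocyte markers, Serpina1a had no count, and Alb, Fgb and Apob were at 0.0574 CPM or less. The other hepatocyte markers were found in every library, Apoa1 at 0.564 to 2.69 CPM (log2 fold change 1.07, adjusted p = 0.0875, edgeR) and Ttr at 0.349 to 1.03 CPM, as was the adipocyte marker Ucp1 at 0.333 to 1.98 CPM. The summed adipocyte markers, 14.5 to 19.7 CPM in FA and 8.53 to 11.1 CPM in DE, consisted mostly of Cidea, which was called (log2 fold change -0.92, adjusted p = 0.00373).

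The reference lists 2 transcription starts for Acsl1, and counts per gene do not separate their transcripts. The 250 bases before each start are given because Acsl1 is the member that changed, and because these regions differ in composition. They are RefSeq promoter sequences of build GRCm38.p6, plus strand, 5′ to 3′. The upstream window covers chr8:46470787-46471036 and the downstream window chr8:46490716-46490965. Capitals mark the GC box GGGCGG and, in the second window, the CCAAT box as read on the opposite strand.
Acsl1 upstream start: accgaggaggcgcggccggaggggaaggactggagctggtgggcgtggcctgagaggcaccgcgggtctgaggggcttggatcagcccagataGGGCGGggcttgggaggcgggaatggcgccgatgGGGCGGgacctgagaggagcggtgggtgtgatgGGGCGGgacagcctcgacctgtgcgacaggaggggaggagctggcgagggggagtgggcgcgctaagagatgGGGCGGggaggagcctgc
Acsl1 downstream start: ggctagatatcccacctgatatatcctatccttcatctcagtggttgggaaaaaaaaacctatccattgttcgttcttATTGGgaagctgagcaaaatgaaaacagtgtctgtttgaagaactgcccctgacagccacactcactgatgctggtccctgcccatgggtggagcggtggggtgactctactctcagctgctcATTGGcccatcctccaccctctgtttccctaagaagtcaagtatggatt
The upstream window was 72% G and C, with 20 CpG dinucleotides, and held the GC box 4 times, at 157, 123, 90 and 18 bases before the start. The downstream window was 48.4% G and C, with 2 CpG dinucleotides, and held no GC box and 2 CCAAT boxes, 172 and 49 bases before the start. Over all 32851 promoter windows of this length, the median was 52.4% G and C with 6 CpG dinucleotides. GGGCGG was found in 32.7% of them and CCAAT in 33.8%, on either strand.

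Further motifs were searched on both strands in the same way. The hexamer AGGTCA occurred in 14.0% of all windows. The direct repeat of this hexamer with 1 base between the copies, the textbook site of PPAR and RXR receptors, contains it and occurred in 0.0335%. Neither was in a window of Acsl1, and among the members only the first of the 3 starts of Acsl6 held AGGTCA, at 2 places. The sterol regulatory element (0.0731% of windows), the E-box CACGTG (6.02%) and TATAAA (12.4%) were in none of the 10 windows of the 7 genes. The sterol element and the direct repeat were each searched as 1 fixed pattern, and variants of them or sites outside the windows were not searched. Matches to both were so rare over all windows that their absence here cannot show whether a member has such a site. GC boxes were found before at least 1 start of each member except Acsl5. Acsl3 held 5, Acss2 held 4, and Acsl4 and Acss1 held 2 each.

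Acsl3 (Entrez gene 74205, chromosome 1 from 78657825 to 78707743) encodes a synthetase of the endoplasmic reticulum and of lipid droplets. It stood at 137, 140.3, 132 and 123 CPM in FA replicates 2, 3, 4 and 6, and at 121, 94.6, 114 and 147 CPM in DE replicates 1, 3, 5 and 7. The FA libraries all fell inside the DE range, which was set by DE replicate 7 at its top and DE replicate 3 at its bottom. Its log2 fold change was -0.16 (SE 0.13, 95% interval -0.44 to 0.12, adjusted p = 0.453, edgeR). The interval runs from a level 0.737 times that in FA to 1.09 times, so a change as large as that of Acsl1 lies outside it. Without the libraries of prefix 12 the log2 fold change was 0.0044 (adjusted p = 0.992, edgeR).

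Acsl4 (Entrez gene 50790, X chromosome from 142317993 to 142390802, minus strand) encodes the isoform that prefers arachidonic acid and other polyunsaturated acids bound for phospholipids. Its levels were 79.2, 58.3, 73.6 and 73.8 CPM in FA replicates 2, 3, 4 and 6 and 70.5, 59.1, 62.8 and 85.5 CPM in DE replicates 1, 3, 5 and 7. The groups overlapped almost completely. The log2 fold change was -0.04 (SE 0.14, 95% interval -0.33 to 0.26, adjusted p = 0.884, edgeR), and its sign depended on the setting.

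In the DE libraries, Acsl1, Acsl3 and Acsl4 were each highest in replicate 7, followed by replicates 1, 5 and 3. Acsl3 and Acsl4 were both lower in the DE libraries of prefix 12 than in those of prefix 11, by log2 differences of -0.36 (SE 0.14, adjusted p = 0.169) and -0.35 (SE 0.16, adjusted p = 0.204, edgeR model of 3 groups), neither of which was called. At an unadjusted p under 0.05 these were 2 of the 6 tested members, against 23% of all genes tested in that comparison.

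Acsl5 (Entrez gene 433256, chromosome 19 from 55251861 to 55296628) encodes an isoform of mitochondria and endoplasmic reticulum that is best known from intestine and liver. It stood at 34.3, 35.0, 34.0 and 37.5 CPM in FA replicates 2, 3, 4 and 6 and at 36.3, 44.9, 40.1 and 38.8 CPM in DE replicates 1, 3, 5 and 7. FA replicate 6 exceeded DE replicate 1, and apart from that the DE libraries were the higher ones. The log2 fold change was 0.19 (SE 0.10, 95% interval -0.02 to 0.40, adjusted p = 0.243, edgeR). Set against the summed cardiomyocyte markers, Acsl5 ran from 0.554 to 0.589 CPM per 1000 in FA and from 0.678 to 0.882 in DE. All DE libraries were above all FA libraries on this scale for 21% of tested genes, since the marker sum itself was lower in every DE library.

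Acsl6 (Entrez gene 216739, chromosome 11 from 54303805 to 54364756) encodes the isoform of brain that takes docosahexaenoic acid. It had 11, 7, 6 and 5 counts in FA replicates 2, 3, 4 and 6 and 9, 11, 13 and 5 counts in DE replicates 1, 3, 5 and 7. These counts correspond to 0.246 to 0.349 CPM in FA and 0.266 to 0.324 CPM in DE. In the fit without a filter its log2 fold change was -0.02 (adjusted p = 0.989, edgeR).

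**Figure D2:**
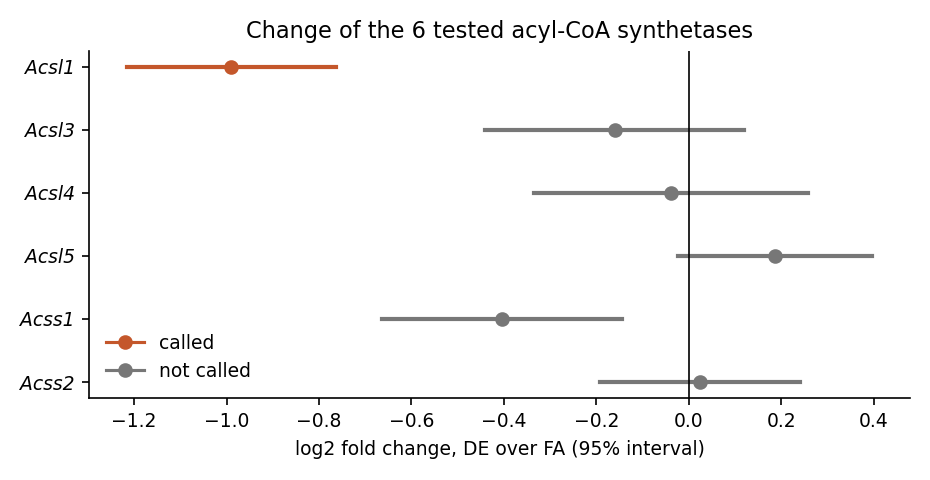
Log2 fold change of DE over FA (horizontal axis) for the 6 acyl-CoA synthetases that passed the filter on low counts, with 95% intervals from edgeR's quasi-likelihood fit of 8 libraries. The interval of Acsl1, from -1.22 to -0.76, lies apart from those of the other 5 genes. The interval of Acss1 excludes 0 before adjustment for the number of genes tested, and the other 4 include it.

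The acetyl-CoA synthetases turn acetate into acetyl-CoA, Acss1 in the mitochondrial matrix, where the product can be oxidised, and Acss2 in the cytosol and nucleus, where it serves lipid synthesis and histone acetylation. Acss1 (Entrez gene 68738, chromosome 2 from 150618111 to 150668240, minus strand) stood at 45.9, 38.2, 42.3 and 31.5 CPM in FA replicates 2, 3, 4 and 6. In DE replicates 1, 3, 5 and 7 it stood at 30.6, 28.6, 29.5 and 30.8 CPM. The groups did not overlap, but FA replicate 6 lay only just above the highest DE library, and the DE libraries were close together (coefficient of variation 3.46%, against 15.6% in FA). Of the 6 tested members, Acsl1 and Acss1 had groups that did not overlap, which over all tested genes held for 14.7%.

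Acss1 changed by -0.40 on the log2 scale (SE 0.12, 95% interval -0.66 to -0.15, unadjusted p = 0.00544, adjusted p = 0.0672, edgeR), and was not called. At an unadjusted p under 0.05, 25.6% of all tested genes differed, as did Acsl1 and Acss1 among the members. Acss1 was called in 4 of the 21 other settings. These were DESeq2 (adjusted p = 0.0292), edgeR's likelihood ratio test (adjusted p = 0.0323), offsets for transcript length and GC content (adjusted p = 0.0278) and the fit without FA replicate 6 (log2 fold change -0.50, adjusted p = 0.0241). Over all 21 settings its adjusted p ran from 0.0241 to 0.665, and its log2 fold change from -0.50 to -0.32. Set against the summed cardiomyocyte markers, its groups overlapped, with 0.495 to 0.742 CPM per 1000 in FA and 0.498 to 0.588 in DE.

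Acss2 (Entrez gene 60525, chromosome 2 from 155518043 to 155562743), the cytosolic enzyme, was at 27.5, 34.3, 31.8 and 33.2 CPM in FA replicates 2, 3, 4 and 6 and at 30.7, 31.7, 32.5 and 33.8 CPM in DE replicates 1, 3, 5 and 7. All DE libraries fell inside the FA range. The log2 fold change was 0.02 (SE 0.10, 95% interval -0.19 to 0.24, adjusted p = 0.901, edgeR), an interval from 0.875 to 1.18 times the FA level. In the summed transcripts of the pair, counted per kb of transcript, Acss1 made up 56.6 ± 5.91% in FA and 49.5 ± 1.20% in DE (SD, n = 4 each). The lowest FA library, at 50.0%, lay within the DE range of 48.7% to 51.3%.

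To compare levels between genes, CPM were divided by transcript length in kb. In FA the order was Acsl1 (218 ± 7.38 CPM per kb), Acsl3 (33.7 ± 1.92), Acsl4 (13.4 ± 1.69), Acss1 (10.9 ± 1.70), Acss2 (8.30 ± 0.784), Acsl5 (8.29 ± 0.375) and Acsl6 (0.0402 ± 0.00617, SD, n = 4 each). Acsl1 and Acsl3 were each separated from their neighbours in every library, whereas Acsl4 overlapped with Acss1, and Acss1 with Acss2 and Acsl5. Acsl6 was below all others. In DE the order was Acsl1 (109.6 ± 12.7 CPM per kb), Acsl3 (30.2 ± 5.53), Acsl4 (13.0 ± 2.19), Acsl5 (9.44 ± 0.848), Acss2 (8.43 ± 0.346), Acss1 (8.25 ± 0.286) and Acsl6 (0.0386 ± 0.00386). Acsl5 and Acss2 overlapped, as did Acss2 and Acss1. The order was the same with the length of the longest transcript in both groups, although the level of Acsl1 per kb was then lower (159.9 in FA and 80.5 in DE).

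On this scale Acsl1 ranked 213 among 13851 tested genes with a known length in FA, within the top 1.54%, and 465 in DE, within the top 3.36%. The rank of Acsl4 was 4125 in FA and 4173 in DE. Acss1 moved from rank 4823 to 5818 and Acsl5 from 5828 to 5323.

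**Figure D3:**
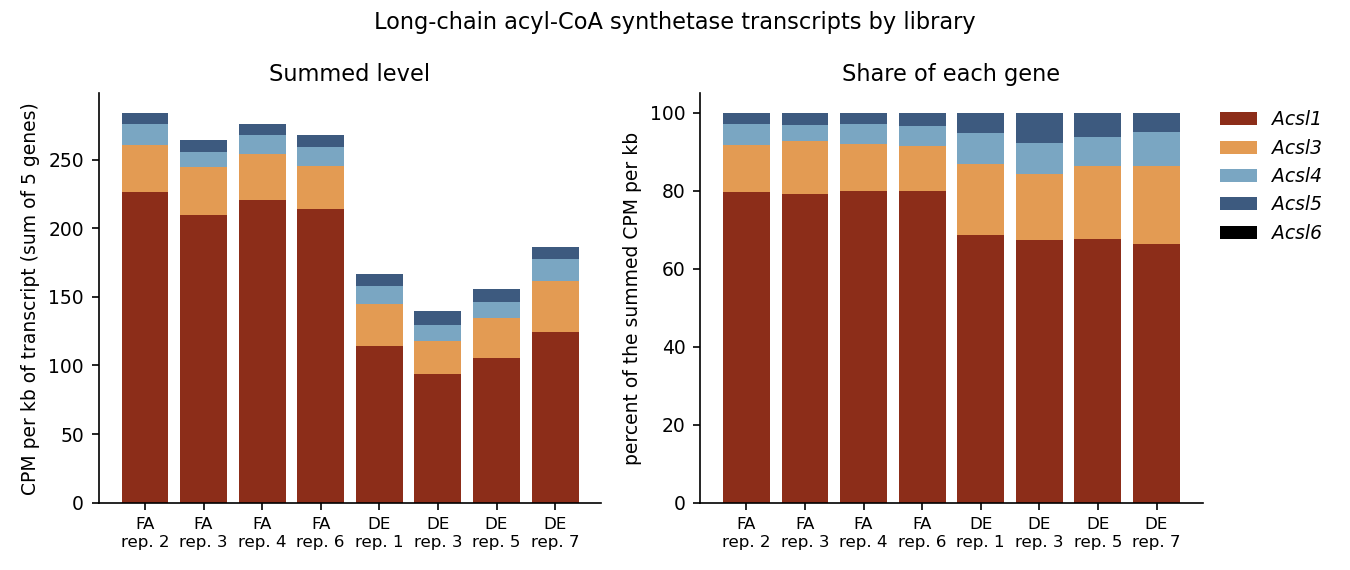
Summed CPM per kb of the 5 long-chain synthetases in each library (left) and the share of each gene in that sum (right, percent), with FA replicates on the left of each panel and DE replicates on the right. The sum runs from 264 to 284 in FA libraries and from 139.8 to 187 in DE libraries. Acsl1 takes 79.3% to 80.0% of it in FA libraries and 66.5% to 68.6% in DE libraries, and Acsl6 is too low to be seen.

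The summed level of the 5 long-chain synthetases was 273 ± 8.80 CPM per kb in FA NCMs and 162 ± 19.6 CPM per kb in DE NCMs (SD, n = 4 per group). Of the difference between these means, 110.7 CPM per kb, Acsl1 made up 108.03 or 97.6%. Acsl1 held 79.7 ± 0.318% of the long-chain transcripts in FA and 67.5 ± 0.883% in DE. The share of Acsl3 was 12.4 ± 0.775% in FA and 18.5 ± 1.18% in DE, that of Acsl4 4.89 ± 0.505% and 8.01 ± 0.431%, and that of Acsl5 3.04 ± 0.208% and 5.92 ± 1.21%. Within each group the share of Acsl1 varied less than its level, but Acsl1 makes up most of the sum it is divided by, which by itself narrows that spread. Acsl1 was 6.45 times as abundant as Acsl3 in FA and 3.63 times in DE.

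Exons of several members overlap those of other genes in the annotation, and the strand setting of the counting is not given in the sources used here. Acsl1 shares 1039 bases with Gm45244 on the opposite strand, which is not in the count table. Acsl5 shares 404 bases with Zdhhc6 on the opposite strand, a gene with 26.4 CPM in FA NCMs and 22.2 CPM in DE NCMs (log2 fold change -0.25, adjusted p = 0.179, edgeR). Acss2 shares 395 bases with Gss, 335 with Acss2os and 197 with Ggt7, all on the opposite strand. Gss had 24.3 CPM in FA NCMs and 18.5 CPM in DE NCMs (log2 fold change -0.39, adjusted p = 0.0798, edgeR). Acsl3 shares 244 bases with Utp14b on the same strand, with 14.8 CPM in FA NCMs and 11.2 CPM in DE NCMs. Acss1 shares 113 bases with E130215H24Rik, which had 18 counts in all, and Acsl6 shares 202 bases with Gm12224. How far such fragments entered the members' counts was not tested.

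The tested genes closest to Acsl1 on its chromosome were not called. Slc25a4, which encodes a mitochondrial carrier of ADP and ATP and ends 259975 bases before Acsl1, had 3199 ± 429.5 CPM in FA NCMs and 2980 ± 265.5 CPM in DE NCMs (SD, n = 4, log2 fold change -0.10, adjusted p = 0.609). Cenpu, which encodes a centromere protein and begins 15968 bases after it, had 1.86 ± 0.495 CPM in FA NCMs and 3.02 ± 0.183 CPM in DE NCMs (SD, n = 4, log2 fold change 0.71, adjusted p = 0.0535, edgeR).

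Over the 8 libraries, the tested genes whose profile was nearest to that of Acsl1 were Lrrc39, Vwa8 and Etfdh. Likeness was measured as the root mean square difference of log2 CPM after each gene was centred on its own mean, so that both the change between groups and the differences between libraries count. It was 0.0927 for Lrrc39, 0.106 for Vwa8 and 0.116 for Etfdh, against a median of 0.555 over all tested genes. Lrrc39, a leucine-rich repeat protein of the sarcomere, had 161 ± 4.78 CPM in FA NCMs and 81.4 ± 5.45 CPM in DE NCMs. Etfdh, which passes electrons from the acyl-CoA dehydrogenases to ubiquinone, had 519.7 ± 10.8 CPM in FA NCMs and 279 ± 8.09 CPM in DE NCMs (SD, n = 4 per group). These genes were picked for their likeness on these libraries, so their changes are a description.

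The genes of the steps before and after the synthetases were described by 11 lists with 125 genes in all, of which 109 were tested. Of these, 27 (24.8%) were called, 24 lower and 3 higher in DE, against 5.8% of all tested genes. The lists were written with earlier results of these data known, and they hold genes that the study itself picked from these libraries, so the count is no independent evidence. The number called higher was 1 without FA replicate 2, FA replicate 4 or DE replicate 3, with the prefix as a term, with prefix 11 alone and with the 25% difference built into the test. It was 6 without DE replicate 1 and with the length and GC offsets, 5 with the likelihood ratio test and 7 with DESeq2 or library totals alone. The number called lower lay between 18 and 26 with libraries left out, and was 15 with the built-in difference.

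**Figure D4:**
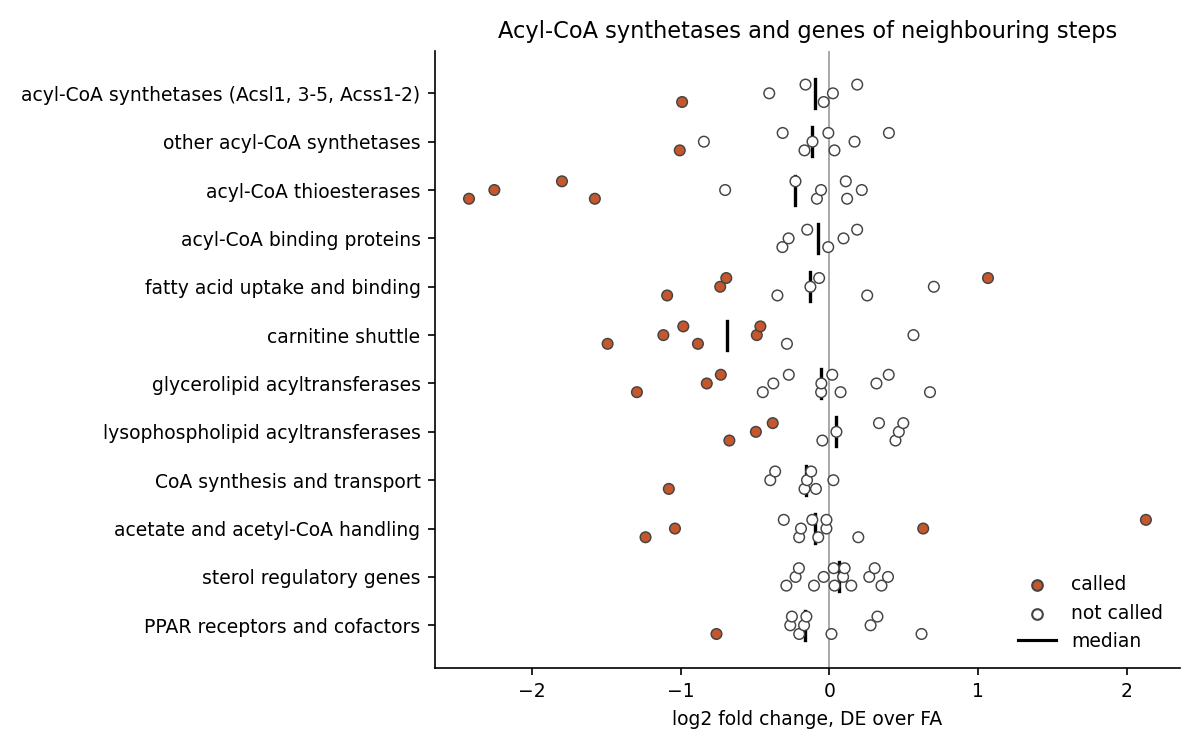
Log2 fold change of DE over FA (horizontal axis) for the 6 tested acyl-CoA synthetases and for the tested genes of 11 lists of neighbouring steps (rows). Filled points were called, open points were not, and vertical bars are medians. Called genes lie left of 0 in every list that has any, and 3 of them lie right of 0, Fabp5 in uptake and Slc16a3 and Slc25a1 in acetate handling.

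Other acyl-CoA synthetases were mostly not called. Of 18 genes in this list 9 were tested and 1 was called, Slc27a1, a fatty acid transport protein with synthetase activity of its own, which fell from 88.0 ± 10.2 to 43.8 ± 6.31 CPM (log2 fold change -1.01, SE 0.13, adjusted p = 0.00181, edgeR). Without FA replicate 6, 2 genes of this list were called. The list's median was -0.11. Acss3, a mitochondrial relative of Acss1 that prefers propionate, had 6.30 CPM in FA NCMs and 3.60 CPM in DE NCMs (adjusted p = 0.151). Acsm1 and Acsm5, medium-chain synthetases, had no count in any library.

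Of 9 genes of fatty acid uptake and binding, 3 were called lower and 1 higher (median -0.13). Cd36, the main fatty acid transporter of the cell membrane, fell from 1145 ± 114 to 689 ± 64.0 CPM, and the cytosolic carrier Fabp3 from 1556 ± 166 to 962 ± 165.7 CPM. Lipe, hormone-sensitive lipase, changed by -1.09. Fabp5, another carrier, rose by 1.07 on the log2 scale, and lost its call without FA replicate 2 (adjusted p = 0.0689), FA replicate 4 (adjusted p = 0.0734) or DE replicate 3 (adjusted p = 0.0591, edgeR). Of the 8 genes of CoA synthesis and transport only Slc25a42, the mitochondrial carrier of CoA, was called (log2 fold change -1.08, adjusted p = 0.00306). Without DE replicate 1 there were 2 calls.

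Among the users of long-chain acyl-CoA, the carnitine shuttle had the highest share of calls of the 11 lists, with 6 of 8 genes lower and a median of -0.69. Cpt1a, which makes acylcarnitine at the outer mitochondrial membrane, changed by -1.49, the carrier Slc25a20 by -1.12 and the muscle isoform Cpt1b by -0.98. Of 13 tested glycerolipid acyltransferases and lipins 3 were called, all lower, namely Agpat3 (-0.82), Dgat2 (-0.73) and Gpam (-1.29), which makes the first ester bond of triglyceride, with a list median of -0.06. With the length and GC offsets 6 of this list were called. Of 9 lysophospholipid acyltransferases, 3 were called lower, Lpcat3 (-0.67), Lpgat1 (-0.49) and Lclat1 (-0.38), while the list's median was 0.05. Lpcat3 places arachidonic acid, the preferred acid of Acsl4, into phospholipids. Without single libraries Lpgat1 lost its call in 6 of 8 fits, all but those without FA replicate 3 or FA replicate 6 (adjusted p = 0.0505 to 0.118). Lclat1 lost it in 4 of 8, those without FA replicates 2 and 4 and DE replicates 3 and 5 (adjusted p = 0.0670 to 0.112, edgeR). Over all 21 other settings Lpgat1 kept its call in 10, with log2 fold changes from -0.57 to -0.28. None of the 6 tested acyl-CoA binding proteins passed edgeR's quasi-likelihood test. Of them, 2 had an unadjusted p under 0.05, as had 25.6% of all tested genes.

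The thioesterases, which split acyl-CoA again, were called in 4 of 11 tested genes, all lower, with a median of -0.23. They were Acot1 (-2.25), Acot2 (-1.80), Acot3 (-2.42) and Acot4 (-1.58), the last named after its value was seen. Acot3 was low, at 1.33 CPM in FA NCMs and 0.240 CPM in DE NCMs. With the filter on a mean of at least 1 CPM it was not tested, and 2 genes of this list were called. Acot4, at 0.942 CPM in FA NCMs and 0.331 CPM in DE NCMs (adjusted p = 0.0370), lost its call without FA replicate 2, 3 or 4 or DE replicate 3 or 5 (adjusted p = 0.0652 to 0.127) and with prefix 11 alone (log2 fold change -1.04, adjusted p = 0.180, edgeR). These neighbouring genes are close copies of each other. The sources do not say how fragments that match several of them were counted, which makes their single values uncertain. Set beside these, the change of Acsl1 was -0.99.

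Around acetyl-CoA, 4 of 12 genes were called, 2 lower and 2 higher, with a median of -0.09. Mlycd and Acacb, which break down and make the malonyl-CoA that blocks the carnitine shuttle, changed by -1.24 and -1.04. Slc16a3, an exporter of lactate, rose from 10.2 ± 1.01 to 44.3 ± 21.9 CPM (log2 fold change 2.13, SE 0.33, adjusted p = 0.00552, edgeR). With prefix 11 alone its log2 fold change was 1.35 (adjusted p = 0.0124), and with the prefix as a term it was 1.35 (adjusted p = 0.00501, edgeR). Prefix 12 occurs only in DE, so both settings compare FA with the DE libraries of prefix 11 and are not separate checks. Slc25a1, the mitochondrial citrate carrier, changed by 0.63 (adjusted p = 0.0324) and lost its call without any of FA replicates 2, 3, 4 and 6 or DE replicates 3 and 5 (adjusted p = 0.0564 to 0.106, edgeR). It was not called either with the length and GC offsets (log2 fold change 0.40, adjusted p = 0.0597) or with the prefix as a term (0.44, adjusted p = 0.153, edgeR). Slc16a1, which carries acetate and lactate, had 361 CPM in FA NCMs and 334 CPM in DE NCMs (adjusted p = 0.581). Sirt3 and Sirt1, the deacetylases that activate Acss1 and Acss2, were not called (adjusted p = 0.951 and 0.231).

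None of the 14 sterol regulatory genes, which include the SREBP factors that control Acss2, passed edgeR's quasi-likelihood test (median 0.06). At an unadjusted p under 0.05, 4 of them differed, against 25.6% of all tested genes. The number called was 1 with DESeq2, the likelihood ratio test, library totals alone, the length and GC offsets and without FA replicate 6. Srebf1 had the smallest adjusted p (log2 fold change 0.35, adjusted p = 0.0643). Of the 10 PPAR receptors and cofactors, which control Acsl1 among other genes of fatty acid use, 1 was called, the coactivator Ppargc1b, which fell from 31.0 ± 7.10 to 18.3 ± 1.76 CPM (log2 fold change -0.76, adjusted p = 0.0224, edgeR). The list had 2 calls with DESeq2, the likelihood ratio test, library totals alone and without DE replicate 1, and 3 with the length and GC offsets. The call of Ppargc1b was lost without FA replicate 2 (adjusted p = 0.0791), FA replicate 4 (0.0734) or DE replicate 3 (0.0696). Ppara, the receptor itself, had 32.3 CPM in FA NCMs and 27.1 CPM in DE NCMs (log2 fold change -0.25, adjusted p = 0.309), and Pparg was at 5.69 and 8.74 CPM (log2 fold change 0.62, adjusted p = 0.0565). With the libraries of prefix 11 alone, Fabp5, Lclat1, Lpgat1, Slc25a1 and Ppargc1b also kept their direction and were not called (adjusted p = 0.105, 0.158, 0.114, 0.191 and 0.0939, edgeR). With the 25% difference built into the test the same genes were not called (adjusted p = 0.0849, 0.671, 0.383, 0.222 and 0.130, edgeR). Under that setting Fabp3 (adjusted p = 0.122), Dgat2 (0.0595), Gpam (0.0575) and Acot4 (0.122) were not called either, and 4 genes of the carnitine shuttle were.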

How the data were processed

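RNA of NCMs from 8 male pups was enriched for poly-A and sequenced from stranded libraries by the authors. Reads were aligned to mm10 with TopHat, duplicates were marked with Picard but kept, and fragments per gene were counted with featureCounts. The deposited table holds these raw counts per Entrez gene, without normalization. Strand setting and treatment of multi-mapping reads are not given in the sources used here.

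Libraries were grouped by the exposure in their titles. Symbols and positions came from a RefSeq table of GRCm38.p6, the assembly also called mm10, with 25275 of 27179 genes matched. Transcript length was the union of exons of protein-coding transcripts in the basic set of GENCODE, and was known together with GC content for 92.5% of tested genes.

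In R 4.3.3, genes were filtered with filterByExpr (minimum count 10), scaled by TMM and fitted in edgeR 4.0.16 by quasi-likelihood (glmQLFit, glmQLFTest). The model held exposure alone, and p-values were adjusted by Benjamini-Hochberg over 14966 genes. The SE is the log2 fold change divided by the root of the F statistic, and intervals use the total degrees of freedom of the fit. Copies of a library were looked for within groups, and the counts of FA replicates 2 and 4, the pair most alike, had a chi-square of 5.37 per gene, above sampling noise. The scripts were tested on simulated counts with known changes.

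The members, the companion and marker lists and the named genes (all members, up to 3 called genes per list and direction, and the 3 nearest profiles and flanking genes of a called member) were chosen with earlier results of these data known. Results were recomputed under 21 alternatives. They comprised DESeq2 1.42.0, limma-voom (limma 3.58.1), the likelihood ratio test of edgeR, the 25% difference built into the test, 3 other scalings, 2 other filters, the name prefix as a term, prefix 11 alone, offsets from splines (5 degrees of freedom) of length and GC content, each library left out, and, added after the data were seen, the genes with known length and GC content without offsets.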

Additional observations from a re-analysis of the deposited data

How the results depend on the processing

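Acsl1 was called under all 21 alternatives, and Acsl5 and Acss1 kept their direction. The number of called members was 2 in place of 1 with DESeq2, the likelihood ratio test and the length and GC offsets, the second being Acss1, and lay between 1 and 2 when libraries were left out, with 2 only without FA replicate 6. Signs of genes that were not called turned. With the prefix as a term Acsl3 was at 0.0088 and Acsl4 at 0.13, and with prefix 11 alone at 0.0044 and 0.12. Both settings compare FA with the DE libraries of prefix 11, since prefix 12 occurs only in DE, and are not separate checks. Acsl4 was at 0.030 with library totals alone and at 0.11 with the offsets. When libraries were left out Acsl4 ranged from -0.16 to 0.031 (positive without FA replicate 2, 0.02, DE replicate 3, 0.031, and DE replicate 5, 0.0074) and Acss2 from -0.041 to 0.062 (negative without FA replicate 2, -0.041, and DE replicate 7, -0.0068). The causes were not tested.

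Over all genes, 868 were called. DESeq2 called 1633, the likelihood ratio test 1603, the offsets 1548, the prefix term 448, prefix 11 alone 260 and the built-in 25% difference 114. Leaving out libraries gave 237 to 1168, with the lowest without FA replicate 4 (237), FA replicate 2 (249) and DE replicate 3 (268), and 433 without FA replicate 3 and 526 without DE replicate 5. Library totals alone moved the share of lower calls from 38.2% to 21.3%, and the median of all genes by less than 0.1. That share was 61.4% (70 lower, 44 higher) with the built-in difference, and 33.3% to 50.3% with libraries left out, the highest without FA replicate 3. Companion genes called were 16 with the built-in difference and 19 to 32 with libraries left out. No paired analysis was possible because the labels name no pairs of FA and DE libraries. Acsl6, with 5 to 13 counts a library, limits any statement on that gene. In 14 sets of 4 values no library of a member stood apart from the rest by Dixon's test.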
